A study of Drosophila melanogaster with 6 samples.

Results

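The nuclear genes for the subunits of the mitochondrial respiratory chain were followed in Δ*l(3)mbt* OSCs after knockdown of *ovo*. The 63 members are the genes of the deposited table whose symbol starts with ND- (complex I, 35 genes), is *SdhA*, *SdhB*, *SdhC* or *SdhD* (complex II, 4 genes), or starts with UQCR- (complex III, 6 genes), COX (complex IV, 7 genes) or ATPsyn (complex V, 11 genes), except symbols ending in L. The table holds 17807 genes. OSCs are a *Drosophila* line of ovarian somatic cells, which derive from the follicle layer around the germ cells. All 6 libraries came from OSCs with a knockout of *l(3)mbt*, a chromatin gene that silences germline genes in somatic cells, so the controls carry the knockout too, and no library here came from cells with an intact *l(3)mbt*. The cells were nucleofected with a 21 nt siRNA duplex against *ovo*, a gene for a germline transcription factor with zinc fingers, or against *renilla* luciferase, which is not a fly gene. RNA was harvested after 48 h from 3 libraries per group. The study purchased the knockout cells as an established line, and it describes the replicates as distinct samples without saying whether they were separate cultures. The p-values below therefore measure only the spread between these libraries.

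The sense strand of the *ovo* siRNA is shown because it defines the knockdown. It matched an exon of *ovo* on the plus strand of chrX:5066361-5066379 (dm6, 19 nt of the duplex).
*ovo* siRNA, sense: ggagcugcguggacgacgagg
The *ovo* transcript was at 961, 885 and 875 normalized counts in the *ovo* siRNA replicates 1, 2 and 3 and at 1300, 1590 and 1642 in the *renilla* siRNA replicates. A normalized count is a read count divided by the size factor of its library. All 3 knockdown libraries lay below all 3 controls, and *ovo* fell by 0.73 ± 0.13 on the log2 scale (SE; limma, adjusted p = 0.00862). Leaving out *ovo* siRNA replicate 2 ended that call (−0.71, adjusted p = 0.0601), and so did removal of a trend with transcript length and GC content from every library (−0.45, adjusted p = 0.135).

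The respiratory chain sits in the inner mitochondrial membrane. Complexes I and II pass electrons from NADH and succinate to ubiquinone, complex III passes them on to cytochrome c and complex IV to oxygen. Complexes I, III and IV pump protons, and complex V, the ATP synthase, uses the proton gradient to make ATP. Most subunits are encoded in the nucleus and imported, while a small set of hydrophobic subunits is encoded by mitochondrial DNA, so each complex other than complex II needs products of both genomes. In the germline of the fly ovary, subunits of the ATP synthase are needed for germ cell differentiation.

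The libraries held between 2759594 and 21481506 counted reads, and the smallest, *renilla* siRNA replicate 3, had fewer reads than the next smallest by a factor of 4.11. The limit that a count of 0 allows (3 reads, counting error only) was 13.1 normalized counts in that library and 1.39 in the deepest one. The same replicate also stood apart in composition. Across all genes its difference from the mean of the other controls fell with transcript length (Spearman's rho = −0.65, a correlation across genes). Set in the same way against the other libraries of their group, the *ovo* siRNA libraries were spread over the same axis, at rho of 0.61 for replicate 1, −0.31 for replicate 2 and −0.56 for replicate 3. Most respiratory chain transcripts are short, with a median of 710 nt for the members tested against 1891 nt for all genes tested, so results are given with and without *renilla* siRNA replicate 3. The ovarian somatic cell markers *tj* and *Fas3* were at 8596 to 13870 and 2129 to 3060 normalized counts. Of 5 such markers tested, *tj* fell by 0.51 and *fs(1)Yb* rose by 0.61 on the log2 scale (limma, adjusted p = 0.0286 and 0.0353). Of the 6 fits that each left out 1 library, *tj* passed in 1 and *fs(1)Yb* in 2. Without *renilla* siRNA replicate 3, 1 of the 5 markers rose and 3 fell, with *Fas3* (−0.39) and *Hr39* (−0.77) besides *tj*. With the length and GC trend removed, 2 rose and 2 fell, with *piwi* (0.73) besides *fs(1)Yb* and *Hr39* (−0.38) besides *tj*. Of 5 germ cell genes, *vas* was at 1668 to 2416 and *nos*, *osk* and *bam* at no more than 18.2, while *aub* was at 90.7 to 119 in the controls and at 40.6 to 57.2 after *ovo* siRNA and fell (limma, adjusted p = 0.00884; passed in 5 of those 6 fits). The hemocyte genes *Hml* and *NimC1*, the muscle gene *Act88F* and the neuronal genes *nSyb* and *Syt1* stayed at or below 14.1. Other genes of the same lists were well above that, with the hemocyte gene *srp* at 280 to 647, the muscle genes *Mef2* at 136 to 190 and *Mhc* at 50.6 to 72.0, and the neuronal gene *elav* at up to 2316. With 6 libraries *elav* did not pass. It fell without *renilla* siRNA replicate 3 (−0.39, limma, adjusted p = 0.0108) and with the trend removed (−0.37, adjusted p = 0.0152). The summed germ cell markers ran from 2176 to 2488 after *ovo* siRNA and from 1787 to 2357 after *renilla* siRNA, the hemocyte markers from 433 to 653 and from 285 to 550, the muscle markers from 205 to 249 and from 197 to 262, and the neuronal markers from 1596 to 1821 and from 1629 to 2329. The part of these markers in the results was not tested.

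Of the 63 members, 59 reached 10 normalized counts in 3 or more libraries and were tested. Each of the 59 was read in both groups, with at least 67 reads in every library. After *ovo* siRNA, 10 members rose and 0 fell at an adjusted p below 0.05 (limma on log2 of the normalized count + 1, two-sided, adjusted over 7893 genes). Among all genes tested, 11.8% rose and 14.1% fell, and the share of members that rose was 16.9%. TMM scaling, which moved the median of all genes from 0.04 to 0.14, called 1262 rises and 908 falls among all genes in place of 931 and 1114, and 15 rises among the members. The median log2 fold change of the members was 0.38, against 0.04 for all genes, and 48 of the 59 lay above 0. The groups did not overlap for 10 members, all higher after *ovo* siRNA; over all genes 23.6% were separated upward and 21.7% downward. At an unadjusted p below 0.05, 19 members were higher and 0 lower, beside 19.2% and 19.8% of all genes. On the recovered reads, edgeR and DESeq2 also called 0 falls among the members, beside 1260 and 1492 falls among all genes. Since whole cultures were sequenced, more of a transcript per cell and a different make-up of the cells cannot be told apart. With 3 libraries in each group an exact rank test cannot go below p = 0.1, and it was not applied.

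**Figure D1:**
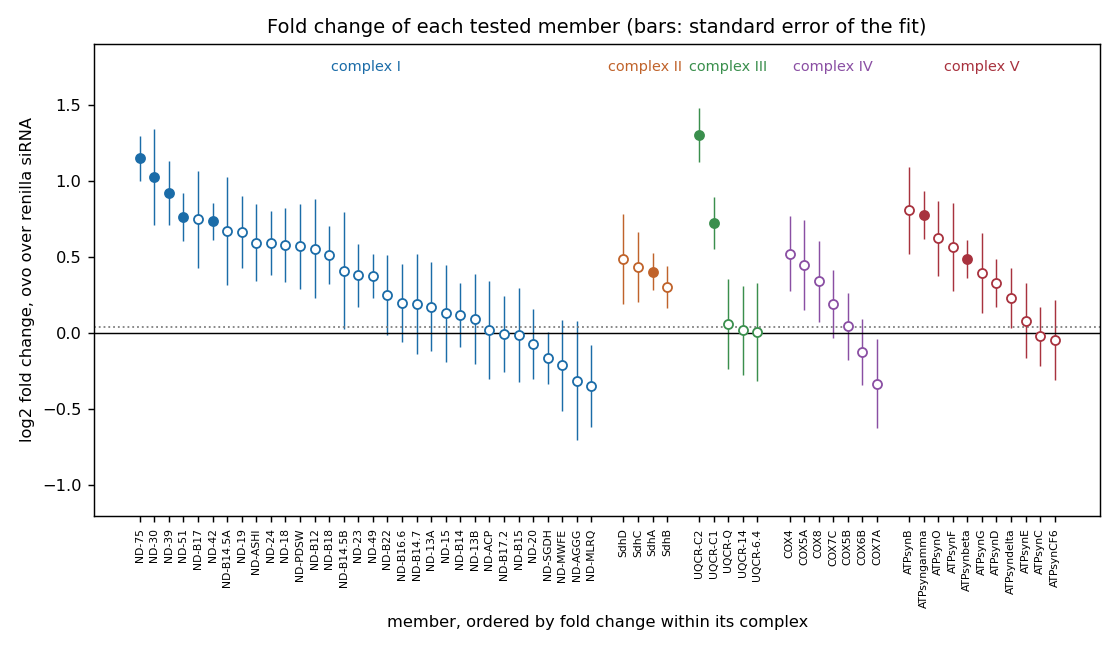
Log2 fold change (y axis) of *ovo* siRNA over *renilla* siRNA for the 59 members tested, grouped by complex and ordered within it (x axis). Points are fitted values, bars are standard errors, filled points passed the test and the dotted line is the median of all genes (0.04). The filled points run from 0.40 for *SdhA* to 1.30 for *UQCR-C2*, and complex IV has none.

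The 10 members that rose comprised 5 of 32 tested genes of complex I, 1 of 4 of complex II, 2 of 5 of complex III, 0 of 7 of complex IV and 2 of 11 of complex V. Whether these shares differ between complexes was not tested. The complexes also differed in transcript length, with medians of 711 nt in complex I, 1056.5 nt in II, 625 nt in III, 570 nt in IV and 802 nt in V. Leaving out *renilla* siRNA replicate 3 changed the count to 46 rises and 0 falls, beside 26.2% rises and 24.4% falls among all genes. When a smooth trend with transcript length and GC content was removed from every library, 21 members rose and 3 fell, beside 20.3% and 14.5% of all genes. The count was lower when any other library was left out, at 9 without *ovo* siRNA replicate 1, 2 without replicate 2, 3 without replicate 3, 5 without *renilla* siRNA replicate 1 and 3 without replicate 2. Over all genes the rises were fewer too in these 5 fits, at 565, 116, 209, 554 and 370 in the same order, in place of 931. Of the 10 members, 8 passed in all of the fit with 6 libraries, the fit without *renilla* siRNA replicate 3 and the fit with the trend removed. These were *ND-75*, *ND-51*, *ND-30*, *ND-39*, *ND-42*, *UQCR-C2*, *ATPsyngamma* and *ATPsynbeta*. Of the 6 fits that each left out 1 library, *ND-75* and *UQCR-C2* passed in 6, *ND-42* in 5, *ND-51* and *ATPsyngamma* in 3, *ND-30*, *ND-39*, *SdhA* and *UQCR-C1* in 2 and *ATPsynbeta* in 1, and the fit without *renilla* siRNA replicate 3 was among them for all 10.

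Complex I oxidises NADH. Its peripheral arm carries the flavin and the iron-sulphur clusters, on 7 nuclear core subunits that are also found in bacteria, and around the core lie accessory subunits of the eukaryotes. Of the 7 core subunits, *ND-75*, *ND-51* and *ND-30* rose, and their median log2 fold change was 0.59. Of the 25 accessory subunits tested, *ND-39* and *ND-42* rose, and the median was 0.20. The median transcript length was 976 nt for the core and 651 nt for the accessory subunits. The median log2 fold changes were 0.40 and 0.24 with the length and GC trend removed, and 0.82 and 0.56 without *renilla* siRNA replicate 3. Whether core and accessory subunits differ was not tested. *ND-75* encodes the largest iron-sulphur subunit of the module that oxidises NADH (FBgn0017566, chrX:8248651-8251687, minus strand). It had 2375, 2907 and 3218 normalized counts after *ovo* siRNA and 1320, 1320 and 1169 after *renilla* siRNA. The groups lay far apart and *renilla* siRNA replicate 3 was the lowest library, unlike at most members. The log2 fold change was 1.15 ± 0.15 (limma, adjusted p = 0.00293), and *ND-75* passed without each of the 6 libraries in turn.

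*ND-51*, the subunit that binds the flavin and takes electrons from NADH (FBgn0031771, chr2L:6060842-6062757), had 1751, 2165 and 2023 normalized counts against 1056, 1051 and 1410. All knockdown libraries were above the controls, and the log2 fold change was 0.76 ± 0.16 (limma, adjusted p = 0.0131). The third protein of the same module, *ND-24*, was at 762, 960 and 914 against 514, 473 and 801. Here *renilla* siRNA replicate 3 lay among the *ovo* siRNA libraries, and the difference of 0.59 ± 0.21 did not pass (limma, adjusted p = 0.0777).

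In the module that reduces ubiquinone, *ND-30* (FBgn0266582, chr3L:3158485-3159578) had 1367, 2039 and 2364 normalized counts against 840, 645 and 1436. The groups overlapped, with *renilla* siRNA replicate 3 above *ovo* siRNA replicate 1, and the log2 fold change of 1.03 ± 0.31 passed narrowly (limma, adjusted p = 0.0476). Without *renilla* siRNA replicate 3 it was 1.35. *ND-49*, a further core subunit beside the quinone site, was separated without passing, at 1871, 2079 and 2268 against 1486, 1462 and 1861 (0.38 ± 0.14 on the log2 scale; limma, adjusted p = 0.0933). The iron-sulphur subunits *ND-23* and *ND-20* were at log2 fold changes of 0.38 and −0.07 and did not pass.

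Among the accessory subunits, *ND-39* (FBgn0037001, chr3L:20492082-20497084) had 1814, 2628 and 2841 normalized counts against 1234, 1055 and 1533. It rose by 0.92 ± 0.21 on the log2 scale (limma, adjusted p = 0.0181). *ND-42* (FBgn0019957, chr3R:22027709-22029393) had 1942, 2137 and 2102 against 1175, 1175 and 1371 and rose by 0.73 ± 0.12 (limma, adjusted p = 0.00634). In both genes every knockdown library was above every control, and the spread among the 3 knockdown libraries of *ND-42* was small (SD of 104 around a mean of 2060). The accessory subunits with the next highest fold changes, *ND-B17* and *ND-B14.5A*, stood at 0.75 ± 0.32 and 0.67 ± 0.35 and did not pass (limma, adjusted p = 0.122 and 0.197).

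At the other end of complex I by fold change were small accessory subunits. *ND-MLRQ* had 1218, 1395 and 1739 normalized counts after *ovo* siRNA and 1432, 1506 and 2807 after *renilla* siRNA. Without *renilla* siRNA replicate 3 its log2 difference went from −0.34 to −0.03, and neither value passed, whereas with the trend removed it rose by 0.49 (limma, adjusted p = 0.00553). The human counterpart of *ND-MLRQ* has been reassigned to complex IV, so the grouping by symbol may not be that of the protein. *ND-SGDH*, another accessory subunit, was at −0.16 with 6 libraries without passing, and fell by 0.32 with the trend removed (limma, adjusted p = 0.0379). *ND-AGGG*, the member of lowest level among those tested, was at 102, 152 and 115 against 105, 112 and 293. The excess lies in *renilla* siRNA replicate 3 alone, at 2.71 times the mean of the other controls, the largest such ratio of any member. Of the 50-base windows in the exons of *ND-AGGG*, 69.1% also occur elsewhere in the genome, so its count is uncertain. *ND-ACP*, the mitochondrial acyl carrier protein, also serves fatty acid synthesis and iron-sulphur cluster assembly, and its log2 fold change was 0.02 ± 0.32. By the summed level of its members, complex I took 0.285%, 0.344% and 0.371% of the counted reads in the *ovo* siRNA libraries and 0.203%, 0.192% and 0.294% in the controls.

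**Figure D2:**
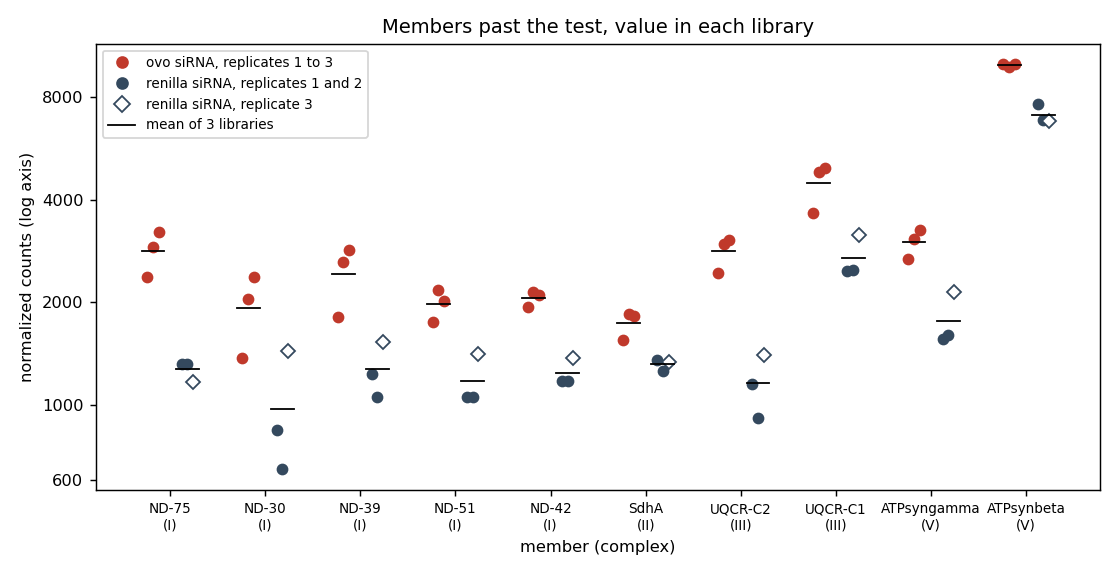
Normalized counts (y axis, log scale) of the 10 members that passed the test, with the complex in brackets (x axis). Circles and diamonds are single libraries, the open diamond is *renilla* siRNA replicate 3 and the short lines are means of 3 libraries. The groups are separated except at *ND-30*, where the open diamond at 1436 lies above the lowest *ovo* siRNA library at 1367.

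Complex II, succinate dehydrogenase, also belongs to the tricarboxylic acid cycle and is the complex made wholly of nuclear products. *SdhA*, the flavoprotein that oxidises succinate (FBgn0261439, chr2R:19391863-19395971), had 1552, 1844 and 1827 normalized counts after *ovo* siRNA and 1353, 1258 and 1331 after *renilla* siRNA. The groups did not overlap, and *renilla* siRNA replicate 3 lay between the other controls. *SdhA* rose by 0.40 ± 0.12 on the log2 scale (limma, adjusted p = 0.0455), and the call was lost with the length and GC trend removed (0.22, adjusted p = 0.141). The iron-sulphur protein *SdhB* was at 1586, 1773 and 1732 against 1285, 1245 and 1620, and the membrane anchors *SdhC* and *SdhD* at 587, 753 and 806 against 445, 437 and 740, and at 702, 858 and 1006 against 464, 483 and 985. None of these 3 passed, at log2 fold changes of 0.30, 0.43 and 0.49, and in each of them *renilla* siRNA replicate 3 exceeded the lowest knockdown library. Without that library all 4 subunits rose.

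Complex III held the largest rise of all members, in a core protein. The core proteins 1 and 2 descend from a mitochondrial processing peptidase and face the matrix. *UQCR-C2* (FBgn0250814, chr3L:16584124-16586111, plus strand) had 2444, 2962 and 3056 normalized counts against 1153, 915 and 1397. *UQCR-C1* (FBgn0038271, chr3R:14890231-14892387) had 3647, 4822 and 4944 against 2462, 2493 and 3153. Both were separated between the groups, by 1.30 ± 0.18 and 0.72 ± 0.17 on the log2 scale (limma, adjusted p = 0.00364 and 0.0199). *UQCR-C2* passed without each library in turn, with a log2 fold change between 0.58 and 1.45, always a rise, over the alternatives run. *UQCR-C1* no longer passed when the length and GC trend was removed (0.15, adjusted p = 0.340). The small subunits *UQCR-Q*, *UQCR-14* and *UQCR-6.4* were at 0.06, 0.02 and 0.01. In each of them *renilla* siRNA replicate 3 was the highest of the 6 libraries, as at *UQCR-14* with 1031, 1162 and 1412 against 908, 936 and 1918. Without that replicate, 4 of the 5 tested genes of complex III rose.

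Complex IV, cytochrome c oxidase, has its catalytic centre in subunits encoded by mitochondrial DNA, and the 7 members here are nuclear subunits around it. None passed the limma test, none had an unadjusted p below 0.05, and edgeR and DESeq2 also called 0. The 7 transcripts were short, from 406 to 796 nt with a median of 570 nt. Of all 47 members tested under 1000 nt, 1 rose. The part of transcript length in this count was not tested. *COX4* had 3379, 4000 and 4542 normalized counts after *ovo* siRNA and 2323, 2202 and 4046 after *renilla* siRNA, a log2 difference of 0.52 ± 0.24 (limma, adjusted p = 0.156). *COX5A* was at 1701, 2535 and 2601 against 1286, 1319 and 2610. In both genes *renilla* siRNA replicate 3 lay within or above the knockdown libraries, and it was the highest of the 6 libraries in 6 of the 7 genes. *COX7A* was at 2062, 1934 and 2449 against 2009, 2173 and 4458, which gave the lowest fold change of the complex (−0.33 ± 0.29). Leaving out *renilla* siRNA replicate 3 brought *COX7A* to 0.03 and gave 4 rises, in *COX4* (0.80), *COX5A* (0.78), *COX8* (0.67) and *COX7C* (0.46). With the trend removed, *COX4* rose (0.27, limma, adjusted p = 0.0392), while *COX6B* fell by 0.26 (adjusted p = 0.0471) and *COX7A* fell by 0.41 (adjusted p = 0.0453).

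Complex V consists of a catalytic head (F1), a central stalk that turns, a ring of c subunits in the membrane and a peripheral stalk that holds the head still. Of 3 members in the head and central stalk, *ATPsyngamma* and *ATPsynbeta* rose. *ATPsynbeta*, the catalytic subunit (FBgn0010217, chr4:1031484-1034917), had 10010, 9812 and 10002 normalized counts against 7673, 6855 and 6796. Its 3 knockdown libraries were close together (SD of 112), *renilla* siRNA replicate 3 was the lowest control, and it rose by 0.49 ± 0.12 on the log2 scale (limma, adjusted p = 0.0274). *ATPsyngamma*, the shaft of the central stalk (FBgn0020235, chr3R:29747704-29749163), had 2686, 3061 and 3268 against 1562, 1601 and 2137, and rose by 0.78 ± 0.16 (limma, adjusted p = 0.0128). *ATPsyndelta*, at the foot of that stalk, was at 0.23 and did not pass.

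In the peripheral stalk, *ATPsynB* had a larger difference than either, at 1865, 2515 and 2659 normalized counts against 1125, 989 and 2089. It did not pass, and *renilla* siRNA replicate 3 lay above *ovo* siRNA replicate 1 (0.81 ± 0.28 on the log2 scale; limma, adjusted p = 0.0729). Without that control it rose by 1.14. *ATPsynO*, which joins the stalk to the head, was at 0.62 ± 0.25 and *ATPsynCF6* at −0.05 ± 0.26. *ATPsynC*, the c-ring subunit, was the most abundant member both in counts and per length. It was at 14146, 14842 and 17022 normalized counts against 12917, 14509 and 19932, and the groups overlapped throughout (−0.02 ± 0.20). The 95% interval of that difference ran from −0.47 to 0.43 on the log2 scale. *ATPsynG*, a small subunit of the membrane part and the complex V member of lowest count, was at 1456, 1797 and 1817 against 1118, 950 and 1966 without passing (0.40 ± 0.26). Without *renilla* siRNA replicate 3, 9 of the 11 members rose, and the exceptions were *ATPsynC* (0.16) and *ATPsynCF6* (0.25).

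The levels could be compared between genes only per length. As mean normalized counts per kb of transcript over the 6 libraries, the members tested ran from 329 for *ND-AGGG* to 10814 for *ATPsynC*, a range of 32.8-fold. The median per complex was 3236 for complex IV, 3053 for V, 2131 for III, 1109 for I and 898 for II. The ranges of neighbouring complexes overlapped, with 1926 to 4442 in complex IV and 2041 to 10814 in complex V. The whole set took 0.971%, 1.10% and 1.17% of the counted reads after *ovo* siRNA and 0.707%, 0.687% and 0.968% after *renilla* siRNA.

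**Figure D3:**
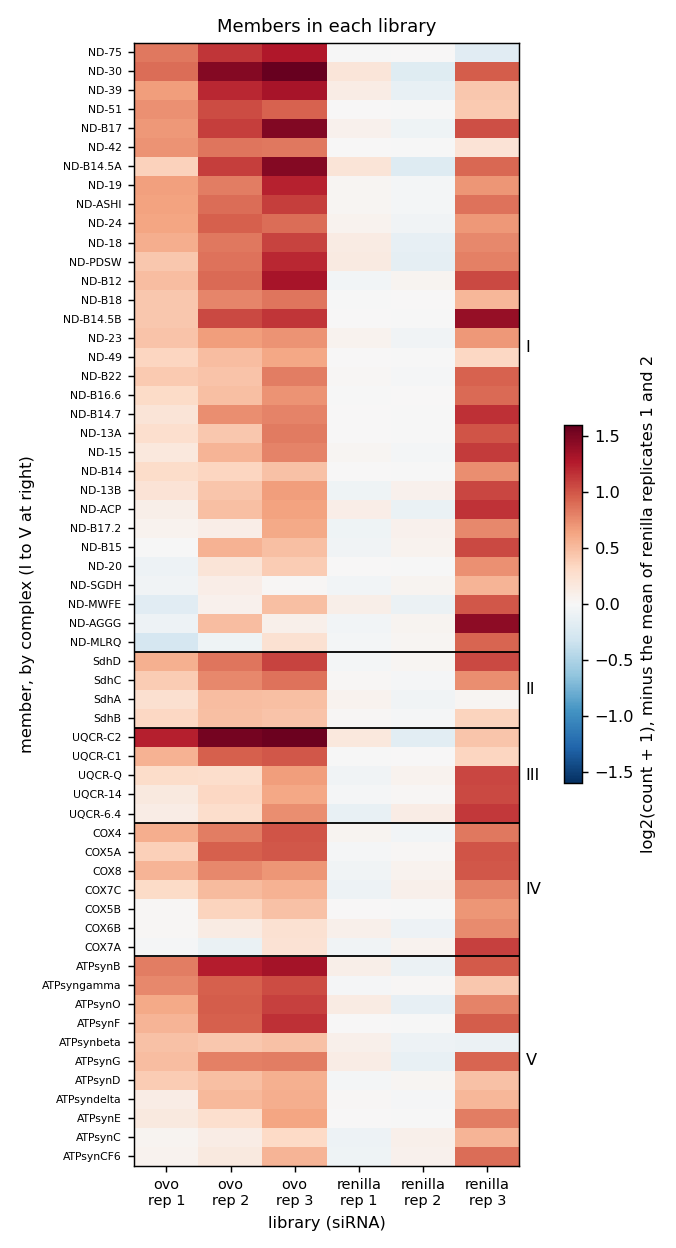
Each of the 59 members (rows, by complex) in each library (columns), as log2 of the normalized count + 1 minus the mean of *renilla* siRNA replicates 1 and 2. Red is higher, and the right column shows *renilla* siRNA replicate 3 above both other controls at 56 members.

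The libraries differed in the same order at most members. *Renilla* siRNA replicate 3 was above both other controls at 56 of 59 members, and the highest of all 6 libraries at 29. Its ratio to the mean of the other controls had a median of 1.76 over the members, from 0.886 at *ND-75* to 2.71 at *ND-AGGG*, beside a median of 0.988 over all genes. Within the knockdown, replicate 1 was the lowest at 56 members and replicate 3 the highest at 49. All 3 knockdown libraries exceeded *renilla* siRNA replicates 1 and 2 at 47 members, and lay below both at 0. That last count leaves out *renilla* siRNA replicate 3. None of these orders was counted over all genes, so they have no background here.

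Transcript length went with these differences. Across the 59 members, the ratio of *renilla* siRNA replicate 3 to the other controls fell with length (Spearman's rho = −0.71), and the log2 fold change increased with length (rho = 0.52). These are correlations across genes that share libraries, and genes are not independent replicates. Of 12 members with transcripts of at least 1000 nt, 9 rose, with a median log2 fold change of 0.73. Of 47 shorter members, 1 rose, *ND-30* (976 nt), and the median was 0.23. How many of all genes passed by length was not counted, in this fit or in those below, so these counts by length have no background. Among all genes the median fold change was −0.26 for transcripts under 500 nt, 0.01 from 500 to 1000 nt, 0.14 from 1000 to 1500 nt, 0.17 from 1500 to 2500 nt and −0.08 for the 2696 genes of 2500 nt or more. The fold change of all genes thus did not increase throughout (rho with length = −0.10). The members of these 5 classes stood at 0.10, 0.25, 0.73, 0.72 and 0.78, the last from 2 members. Without *renilla* siRNA replicate 3, 35 of the 47 shorter members and 11 of the 12 longer ones rose, with medians of 0.51 and 0.82. That comparison had a drift of its own, since the fold change then fell with length over all genes (rho = −0.35), with medians of −0.02, 0.22, 0.25, 0.16 and −0.25 in the same 5 classes, beside 0.75 for the 2 members of the longest class. With the trend removed, 13 shorter and 8 longer members rose, and rho over the members was 0.21. With the trend removed and *renilla* siRNA replicate 3 left out, 38 members rose and 3 fell, beside 27.7% rises and 20.8% falls among all genes. What part of the members' rises comes from the drift with length was not tested.

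**Figure D4:**
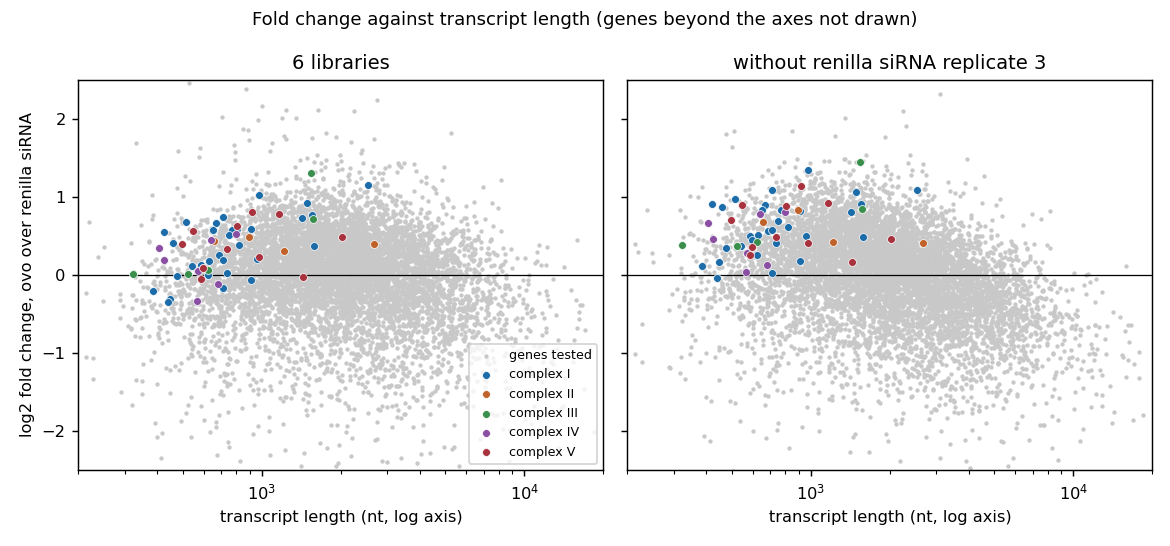
Log2 fold change of *ovo* siRNA over *renilla* siRNA (y axis) against transcript length (x axis, nt, log scale) for all genes tested (grey) and the members (coloured by complex), with 6 libraries (left) and without *renilla* siRNA replicate 3 (right). Members shorter than 1000 nt have a median of 0.23 on the left and 0.51 on the right.

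The promoters of the members were searched for CNGTTA, the motif that the study assigns to Ovo, written CNGTTA or TAACNG on the strand of the gene. The window ran from 250 bases before to 50 bases after the annotated gene start, in dm6 sequence from RefSeq. It held a match in 25 of the 59 members tested (42.4%), beside 41.6% of the genes tested and 37.7% of all 17665 promoters. A match was present in 2 of the 10 members that rose and in 23 of the 49 that did not pass. The 2 are printed with *ND-75*, which rose without a match, and *ND-15*, which held 3 matches and did not pass (0.13 ± 0.32). Capitals mark the matches, and each sequence is read along the strand of its gene. The windows are chr3L:16583874-16584173 (plus) for *UQCR-C2*, chr3R:22027459-22027758 (plus) for *ND-42*, chrX:8251638-8251937 (minus) for *ND-75* and chr2L:114476-114775 (plus) for *ND-15*.
*UQCR-C2*: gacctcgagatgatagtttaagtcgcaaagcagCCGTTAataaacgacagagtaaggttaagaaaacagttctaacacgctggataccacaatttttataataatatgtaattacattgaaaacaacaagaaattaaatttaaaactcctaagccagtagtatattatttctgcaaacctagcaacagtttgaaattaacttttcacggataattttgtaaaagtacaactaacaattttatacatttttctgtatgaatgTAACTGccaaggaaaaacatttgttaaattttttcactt
*ND-42*: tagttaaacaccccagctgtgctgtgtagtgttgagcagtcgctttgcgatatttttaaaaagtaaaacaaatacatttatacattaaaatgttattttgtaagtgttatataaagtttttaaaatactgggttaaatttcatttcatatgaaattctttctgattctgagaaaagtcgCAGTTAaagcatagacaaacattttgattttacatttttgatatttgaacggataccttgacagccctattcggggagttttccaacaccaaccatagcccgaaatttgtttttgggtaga
*ND-75*: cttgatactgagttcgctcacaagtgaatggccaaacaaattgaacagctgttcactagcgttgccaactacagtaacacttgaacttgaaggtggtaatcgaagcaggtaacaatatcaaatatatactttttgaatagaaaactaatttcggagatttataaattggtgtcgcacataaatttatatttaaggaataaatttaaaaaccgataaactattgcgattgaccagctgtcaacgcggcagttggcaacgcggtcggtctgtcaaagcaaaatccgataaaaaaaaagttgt
*ND-15*: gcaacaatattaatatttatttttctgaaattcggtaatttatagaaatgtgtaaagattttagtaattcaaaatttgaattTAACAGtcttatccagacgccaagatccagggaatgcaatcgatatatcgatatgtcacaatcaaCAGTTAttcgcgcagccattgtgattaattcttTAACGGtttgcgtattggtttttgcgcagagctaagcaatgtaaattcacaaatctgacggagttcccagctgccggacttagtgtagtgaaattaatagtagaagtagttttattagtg
In *UQCR-C2* the matches begin 217 bases before and 11 bases after the start, and in *ND-42* 71 bases before it. A match in these letters is not a measured binding site.

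The other 4 members, *UQCR-11*, *ND-B8*, *ND-51L1* and *ND-51L2*, were not tested, since none had more than 1.39 normalized counts (3 reads) in any library. *ND-51L1* and *ND-51L2* carry the name of *ND-51* with a paralog suffix. *UQCR-11* and *ND-B8* are named as ordinary subunits of complexes III and I, and 0 of their 50-base exon windows were repeated in the genome. Among the members tested, *ND-B14.5A* (2.26%) and *ND-AGGG* held such windows. Of 15 symbols that end in L, 14 were under the filter and 8 had 0 reads in all libraries. The exception was *COX7AL*, a paralog of *COX7A*, which was at 7.28, 6.50 and 15.2 normalized counts against 20.0, 38.2 and 39.4. The log2 difference was −1.68 ± 0.43 (limma, adjusted p = 0.0261), and it passed in 3 of the 6 fits without 1 library. *COX7AL* met the filter only through the controls, since just 1 knockdown library reached 10 normalized counts. It was thus tested because it was high in the controls, and the call cannot serve as support for a fall. The level of *COX7AL* was far below that of *COX7A*, whose lowest library held 1934. *ND-MNLL* ends in L without being a paralog by name, and is listed at 0; all of its exonic sequence (100%) is shared on the same strand with another annotated gene.

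Subunits that the symbols miss were read beside the members. The counts in these lists stand beside the 11.8% of all genes that rose and the 14.1% that fell, or 20.3% and 14.5% with the length and GC trend removed. Of 7 nuclear subunits with other names, 1 rose and 0 fell. It was *blw*, the alpha subunit of the F1 head and the partner of *ATPsynbeta*, at 12854, 11803 and 12608 normalized counts against 8232, 8314 and 8976, a rise of 0.55 ± 0.13 on the log2 scale (limma, adjusted p = 0.0197). The groups were well apart, as at *ATPsynbeta*, and with the length and GC trend removed the value was 0.22 (adjusted p = 0.167). *RFeSP*, the Rieske iron-sulphur protein of complex III, was at 0.60 ± 0.26 and *Cyt-c1* at −0.02 ± 0.18, and neither passed. *RFeSP* rose without *renilla* siRNA replicate 3 (0.87, limma, adjusted p = 0.00108), and *Cyt-c1* fell by 0.43 with the trend removed (adjusted p = 0.00560). All 13 subunits encoded by mitochondrial DNA are listed at 0 in every library, so the mitochondrial part of the complexes was not measured here.

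Among the carriers around the chain, 0 of 5 tested genes passed in either direction. *Cyt-c-p*, the somatic cytochrome c, was at −0.52 ± 0.24 and *sesB*, the ADP/ATP exchanger of the inner membrane, at 0.27 ± 0.14 (limma, adjusted p = 0.148 and 0.183). *Ant2*, a further ADP/ATP exchanger of low level, was lower in all knockdown libraries, at 74.7, 78.0 and 82.7 normalized counts against 153, 105 and 101 (−0.58 ± 0.21; limma, adjusted p = 0.0767, and the 1 carrier with an unadjusted p below 0.05). It fell by edgeR and by DESeq2, without *renilla* siRNA replicate 3 (−0.69, adjusted p = 0.0123) and with the trend removed (−0.84, adjusted p = 0.0168). Without that library *sesB* (0.33) and the phosphate carrier *Mpcp2* (0.35) rose. Of 5 assembly factors tested, *Scox*, a copper chaperone of complex IV, rose by 0.75 ± 0.18 (limma, adjusted p = 0.0223), at 568, 670 and 669 normalized counts against 353, 313 and 482. Of 10 tricarboxylic acid cycle genes, 2 rose and 0 fell. They were the fumarase *Fum1* (0.79 ± 0.18) and the succinyl-CoA synthetase subunit *ScsbetaG* (0.66 ± 0.16; limma, adjusted p = 0.0187 and 0.0205). With the trend removed 3 rose, the aconitase *mAcon1* (0.34) besides these, and 2 fell. Those were the isocitrate dehydrogenase subunit *Idh3a* (−0.74, limma, adjusted p = 0.00284), which was lower in all knockdown libraries and also fell without *renilla* siRNA replicate 3 (−0.29), and the succinyl-CoA synthetase subunit *ScsbetaA* (−0.33, adjusted p = 0.0353).

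Of 12 genes of glycolysis, which makes ATP in the cytosol, 2 rose and 2 fell. The hexokinase *Hex-A*, at the entry of the pathway, had 2800, 2829 and 3337 normalized counts against 6116, 7176 and 10343, and fell by 1.37 ± 0.20 on the log2 scale (limma, adjusted p = 0.00484). The aldolase *Ald1* had 7774, 9343 and 10370 against 16525, 17840 and 19499 and fell by 0.98 ± 0.16 (limma, adjusted p = 0.00634). Both were separated by a wide margin, and both also fell without *renilla* siRNA replicate 3 (−1.15 and −0.92) and with the trend removed (−1.45 and −1.42). The kinases *Pgk* (0.54 ± 0.16) and *PyK* (0.63 ± 0.12) of the lower part rose (limma, adjusted p = 0.0400 and 0.0102), and neither passed with the trend removed (0.18 and 0.25). In that fit 1 gene rose, the phosphofructokinase *Pfk* (0.34), and 4 fell, with the lactate dehydrogenase *Ldh* (−0.91, limma, adjusted p = 0.00467) and the isomerase *Pgi* (−0.31, adjusted p = 0.0225) besides *Hex-A* and *Ald1*. Of 7 regulators and factors of mitochondrial DNA, 3 rose and 0 fell. They were *Ets97D*, the fly counterpart of a mammalian activator of respiratory genes (0.58 ± 0.13), the mitochondrial DNA polymerase *tam* (0.62 ± 0.17) and the mitochondrial RNA polymerase *mtRNApol* (0.63 ± 0.17; limma, adjusted p = 0.0185, 0.0335 and 0.0331). The PGC-1 homologue *srl* was at −0.49 ± 0.18 without passing (limma, adjusted p = 0.0813), and it fell by edgeR, by DESeq2 and without *renilla* siRNA replicate 3 (−0.68), but was at −0.04 with the trend removed (adjusted p = 0.724). Of the 6 fits that each left out 1 library, *Hex-A* and *Ald1* passed in 6, *PyK* in 4, *Ets97D* in 3, *Pgk*, *Scox*, *Fum1*, *ScsbetaG* and *tam* in 2, and *blw* and *mtRNApol* in 1.

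**Figure D5:**
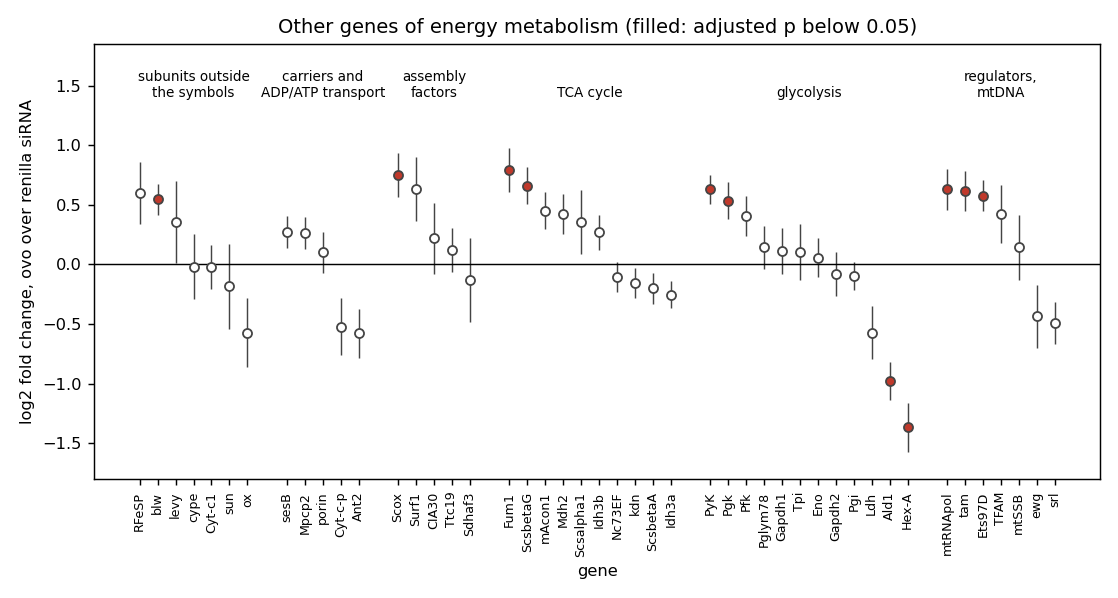
Log2 fold change of *ovo* siRNA over *renilla* siRNA (y axis) with its standard error for the tested genes of 6 other lists of energy metabolism (x axis). Filled points passed the test. *Hex-A* (−1.37) and *Ald1* (−0.98) lie lowest, and *Fum1* (0.79) and *Scox* (0.75) highest.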

How the data were processed

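RNA-seq of 6 libraries from Δ*l(3)mbt* OSCs was analysed, with 3 libraries per siRNA. Per the labels, the input was 500 ng of total RNA, from which poly(A) RNA was purified for directional libraries. The authors trimmed reads with cutadapt 1.18, aligned them to dm6 (BDGP6) with STAR 2.7.3a, counted genes with featureCounts (Subread 1.5.3, reverse strand) and normalized the counts with DESeq2 1.30.1. The deposited table gives this signal as normalized counts. A second deposited table holds the authors' own fold changes and p-values, and it was not used. Values in the table were whole reads divided by 1 size factor per library, and 100% of the recovered reads lay within 0.01 of a whole number. The recovered totals ran from 2759594 to 21481506 reads.

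Genes that reached 10 normalized counts in 3 or more libraries were kept. Log2(normalized count + 1) was fitted with limma 3.58.1 (R 4.3.3, mean-dependent prior variance, no covariates), two-sided, with Benjamini-Hochberg adjustment over all genes kept and a threshold of 0.05. Fold changes are on this scale and understate the change of low genes. Levels are means ± SD. Positions, lengths and 50-base windows came from a later Ensembl annotation of the same build. Of 17807 symbols, 17019 matched directly, 723 by an older symbol and 65 not at all, and the transcript of median length stood for each gene. The alternatives tried were edgeR 4.0.16 and DESeq2 1.42.0 on recovered reads, a pseudocount of 0.5 or 5, a stricter filter (50) or none, TMM or quantile scaling, a robust prior, a block for the replicate number, thinning to the smallest library, removal of a trend with transcript length and GC (natural splines, 5 df), and leaving out each library. Removing the trend and *renilla* siRNA replicate 3 together was added after seeing the data. The procedure was tested on simulated data.

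The members, lists and tests were chosen with earlier results of these data known. Genes were named by rule: *ovo*, every member past the threshold or under the filter, the highest and lowest members of each complex by level and by fold change, the members where *renilla* siRNA replicate 3 stood out most and least, and from each other list those past the threshold (up to 4) or the 2 with the highest mean. *ND-24*, *ND-49*, *ND-15*, *ND-23*, *ND-20*, *ND-B17*, *ND-B14.5A*, *ND-ACP*, *ND-SGDH*, *UQCR-Q*, *COX7C*, *ATPsyndelta*, *ATPsynO*, *RFeSP*, *Cyt-c1*, *srl*, *Ant2*, *Mpcp2*, *mAcon1*, *Idh3a*, *ScsbetaA*, *Pfk*, *Ldh*, *Pgi*, *COX7AL*, *ND-MNLL* and the cell type markers were added after their values were seen.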

Additional observations from a re-analysis of the deposited data

How the results depend on the processing

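The count of 10 members that rose was between 7 and 15 with the other pseudocounts, filters, scalings and prior, edgeR, DESeq2 and thinned reads. Over all genes the rises in those fits ran from 559 with thinned reads to 1262 with TMM scaling. It moved to 27 with the replicate block, 21 with the length and GC trend removed, 26 with both, and 38 with the trend removed in 5 libraries; members that fell then numbered 0, 3, 4 and 3. With the block 18.7% of all genes rose and 19% fell. With the block and the trend removed, 1939 of 7868 genes rose and 1342 fell. Leaving out single libraries gave 2 to 46 rises in all, 1 to 25 in complex I, 0 to 4 in complex II, 1 to 4 in complex III, 0 to 4 in complex IV and 0 to 9 in complex V. Over all genes those fits gave 116 to 2022 rises, with the lowest and the highest number in the same fits as for the members. Complex I gave 9 with TMM scaling, and 15, 13, 15 and 21 with the block, the trend removed, both, and the trend removed in 5 libraries. Complex II gave 0 without a filter, with thinned reads and with the trend removed, 3 with the block and 2 with the trend removed in 5 libraries. Complex III gave 1 with the trend removed and 4 in 5 libraries, and complex IV gave 2 with the block, 1 and 1 with the trend removed without and with it, and 4 in 5 libraries. Complex V gave 1 without a filter and 5, 6, 7 and 7 in the order given for complex I. The cause was not tested. Over all genes, 42.5% to 59.1% of the calls were rises under the alternatives that kept 6 libraries, apart from 39.4% with thinned reads.

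Same-numbered libraries deviated from their group means with correlations of 0.44, −0.14 and 0.46. Libraries of different numbers ran from −0.51 for *ovo* siRNA replicate 1 with *renilla* siRNA replicate 3 to 0.43 for *ovo* siRNA replicate 1 with *renilla* siRNA replicate 2. These values do not settle whether the samples were paired. The numbers were not taken to pair them, and the replicate block is given above only for comparison.

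Apart from the cell type markers, reversals of sign in log2 fold change came in 15 named genes that did not pass with 6 libraries and no trend removed. They also came in *ND-SGDH*, which did not pass there either (0.019 without *renilla* siRNA replicate 3). The marker *Mhc* went from −0.18 to 0.0041 with the trend removed. *ATPsynC* was at 0.073 with TMM scaling, 0.18 with quantile normalization, 0.047 with the trend removed in 5 libraries and −0.15 to 0.16 on leaving out a library. *ATPsynCF6* was at 0.048 and 0.058 and *Cyt-c1* at 0.076 and 0.053 with TMM and quantile scaling, *ND-20* at 0.023 with TMM scaling and *Pgi* at 0.066 with quantile normalization. *ND-ACP* was at −0.065 with edgeR, −0.092 with DESeq2 and −0.087 with the trend removed, with or without the block, and *UQCR-Q* at −0.0081 with edgeR and −0.037 with DESeq2. On leaving out a library *ATPsynCF6* ran from −0.23 to 0.25, *COX6B* from −0.29 to 0.13, *ND-15* from −0.075 to 0.50, *ND-20* from −0.19 to 0.17, *ND-ACP* from −0.23 to 0.40, *UQCR-Q* from −0.15 to 0.42, *Cyt-c1* from −0.12 to 0.13, *COX7A* from −0.54 to 0.033, *ND-AGGG* from −0.57 to 0.16, *UQCR-14* from −0.17 to 0.37 and *UQCR-6.4* from −0.24 to 0.38. With the trend removed, with the block too, and in 5 libraries, *ND-AGGG* was at 0.42, 0.42 and 0.58, *ND-MLRQ* at 0.49, 0.49 and 0.49, and *SdhB* at −0.18, −0.18 and −0.18. *UQCR-14* was at −0.049 with edgeR, −0.076 with DESeq2 and −0.049 with thinned reads, and *UQCR-6.4* at −0.076 with quantile normalization, −0.041 with edgeR and −0.083 with DESeq2. Depth limited *renilla* siRNA replicate 3 most, where the members had a median of 322 reads, beside 2782 in *ovo* siRNA replicate 2.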
